A study of Mus musculus with 20 samples.

Results

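The apolipoprotein E cluster is a row of neighbouring genes for lipid-carrying proteins, described here in sorted spinal cord microglia together with a lipase and a receptor that act on the same particles. The 6 genes were chosen by symbol: *Apoe*, *Apoc1*, *Apoc2* and *Apoc4* of the cluster, *Lpl* and *Lrp1*. All 6 are among the 16810 genes of the table. Microglia were sorted by flow cytometry as cells high in eGFP, and their polyadenylated RNA was sequenced. The samples came from male CX3CR1+/eGFP mice that carry 1 eGFP copy in place of *Cx3cr1*, in every group. Non-injured (NI) mice gave 3 samples. For lateral hemisection (HS) of the thoracic cord there were 3 samples from 72 h, 2 from 1 week and 3 from 2 weeks. For full transection (FT) every one of those times had 3. Injured mice were 12 weeks old at surgery, and the age of the NI mice is not given in the sources used here. The study's methods list more mice than libraries, so that a sample may hold the RNA of several mice. The *Cx3cr1* promoter that drives eGFP is also active in monocytes and other macrophages.

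Apolipoproteins sit on the surface of lipoprotein particles and decide which receptors and enzymes the particle meets. In the central nervous system *Apoe* is made mainly by astrocytes and by microglia that have left the homeostatic state, and its product carries cholesterol and phospholipid between cells. The product of *Apoc2* is the cofactor that lipoprotein lipase (*Lpl*) needs to release fatty acids from triglyceride, that of *Apoc1* hinders receptor binding and lipase action, and that of *Apoc4* is a minor apolipoprotein. *Lrp1* encodes a large endocytic receptor of the LDL receptor family that takes up particles bearing apolipoprotein E.

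The 4 apolipoprotein genes lie on the minus strand of mouse chromosome 7 (GRCm38, the mm10 build that the study used), within 27.61 kb. *Apoe* spans chr7:19696109-19699188, *Apoc1* spans chr7:19689481-19692660, *Apoc4* spans chr7:19678083-19681479 and *Apoc2* spans chr7:19671579-19677941. *Lpl* is on the plus strand at chr8:68880491-68907448 and *Lrp1* on the minus strand at chr10:127538161-127621148. In GENCODE vM21 a read-through gene, *Gm44805*, joins *Apoc4* to *Apoc2* and shares 79.5% of the exon bases of *Apoc2* and 4.69% of those of *Apoc4*. It is not in the table, and how reads in the shared exons were assigned was not tested.

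The sequence before the start site is shown for the 3 cluster genes that had a RefSeq window (GRCm38.p6), since these neighbours rose together but followed different time courses. Of the 6 genes, 4 had a window. Up to 250 bases before the start site were read on the strand of the gene, and bases inside annotated exons were left out, which leaves 250 bases for *Apoe*, 231 for *Apoc4* and 141 for *Apoc2*. RefSeq lists 3 start sites for *Apoe*, and the outermost is shown. Capitals mark the letters AGGTCA or GGGTCA, the half-site that nuclear receptors such as LXR and RXR recognise, and in *Apoc4* also the GC box GGGCGG.
*Apoe*, chr7:19699189-19699438: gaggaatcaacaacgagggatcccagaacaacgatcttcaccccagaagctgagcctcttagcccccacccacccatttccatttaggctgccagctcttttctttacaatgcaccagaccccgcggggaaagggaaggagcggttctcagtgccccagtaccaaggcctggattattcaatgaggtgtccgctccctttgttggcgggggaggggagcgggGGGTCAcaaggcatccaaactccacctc
*Apoc4*, chr7:19681480-19681710: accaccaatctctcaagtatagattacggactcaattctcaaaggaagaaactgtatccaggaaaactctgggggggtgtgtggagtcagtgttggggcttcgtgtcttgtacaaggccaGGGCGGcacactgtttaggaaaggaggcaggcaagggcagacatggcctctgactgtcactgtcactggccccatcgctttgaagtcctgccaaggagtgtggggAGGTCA
*Apoc2*, chr7:19677942-19678082: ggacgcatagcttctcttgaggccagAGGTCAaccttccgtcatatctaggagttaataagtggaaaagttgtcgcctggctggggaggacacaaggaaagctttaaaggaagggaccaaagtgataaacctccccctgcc
In *Apoe*, GGGTCA lies 28 to 23 bases before the start. In *Apoc4*, AGGTCA lies 25 to 20 bases before the RefSeq start, at the end of the printed run, and in *Apoc2* 115 to 110 bases before it. The motifs searched, after the windows had been seen, were the TATA box (TATAAA), the GC box (GGGCGG), both half-sites (AGGTCA on its own and also GGGTCA), the AP-1 site (TGACTCA) and the E-box (CACGTG), on both strands and with overlaps allowed. No TATA box was found in the 3 printed windows, while the window before the *Apoe* start site at 19698621 holds TATAAA 96 to 91 bases before it and its reverse complement 100 to 95 bases before it. AGGTCA is found in 14.0% of the 32851 windows, GGGTCA in 11.6% and GGGCGG in 32.7%. These shares were counted over the 250 bases before each start with exon bases kept, so they are not for windows like the shorter runs of *Apoc4* and *Apoc2*. These matches are a description of the letters only.

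The values are normalised counts, in which a read is worth between 0.0330 in the deepest sample and 0.292 in the shallowest. Between 3872918 and 34099232 reads lay on the genes of the table. Tests used limma on log2(value + 0.5) over all 16810 genes, and a gene was called differentially expressed (DE) at an adjusted p of under 0.05 together with a change of 2-fold or more. All 10 microglia markers were detected, and their summed value was 22921 to 32433 in NI and 18503 to 38940 in the 17 injured samples. FT 1 week replicate 1 stood apart from the other samples of its group, and values at that time are given without it as well where it moves them. Among the DE genes the share that was higher than NI was 66.6% to 77.9% over the 6 injured groups, against 57.8% to 71.5% after quantile normalization and 16.2% to 53.3% after the columns were scaled to 1 total, as the NI columns sum to 777426 to 830481 and the injured columns to 878070 to 1202186.

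The first question was how the lipoprotein genes of injured cord differed from NI. *Apoe*, *Apoc1*, *Apoc2*, *Apoc4* and *Lpl* were DE and higher in all 6 injured groups, and *Lrp1* was DE in none. The 5 of 6 genes called higher compare with 9.08% (72 h), 1.7% (1 week) and 2.43% (2 weeks) of all genes called higher after HS, and with 8.14%, 2.86% and 3.53% after FT. Beside these, the median log2 change of all genes was −0.11, 0.02 and −0.01 after HS and −0.09, −0.03 and −0.02 after FT. These samples are bulk RNA of sorted cells, so that more cells of a type and more RNA per cell cannot be told apart.

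**Figure D1:**
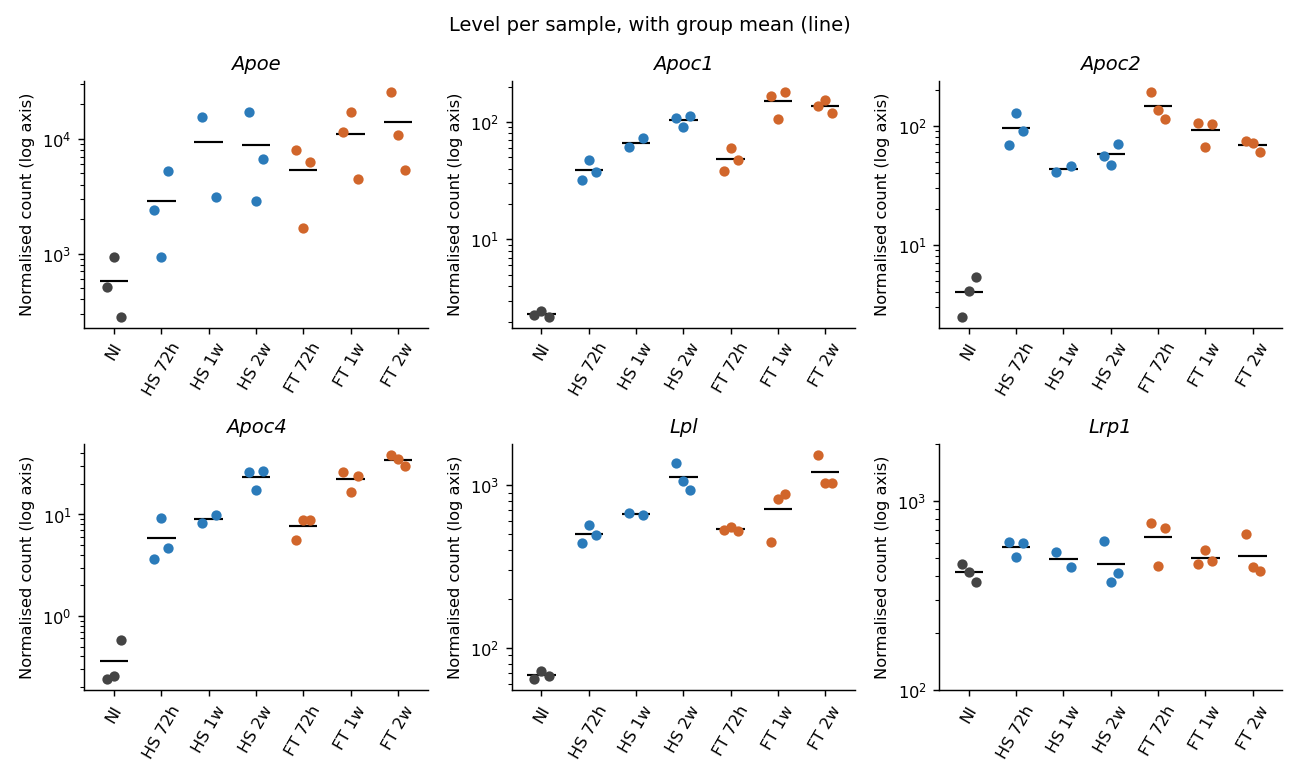
Normalised count (log axis) of the 6 genes in each of the 20 samples, by group, with the group mean as a line (grey NI, blue HS, orange FT). Injured samples lie above all NI samples for *Apoc1*, *Apoc2*, *Apoc4* and *Lpl*, the points of *Apoe* are far apart within every group, and those of *Lrp1* stay between 371 and 761.

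*Apoe*, the main apolipoprotein of the cord, had 508, 939 and 283 in NI. The HS samples had 2384, 927 and 5265 (72 h), 15505 and 3142 (1 week), and 17046, 2878 and 6650.3 (2 weeks). The FT samples had 7974, 1689 and 6338 (72 h), 11411, 17034 and 4468 (1 week), and 25539, 10889 and 5402 (2 weeks). A single injured sample, HS 72 h replicate 2, fell inside the NI range, and the other 16 lay above it. The group means ran from 577 ± 333 (SD, n = 3) in NI to 13943 ± 10410.4 (SD, n = 3) at 2 weeks after FT, where *Apoe* alone took 2.36%, 1.01% and 0.547% of the reads in the 3 samples, against 0.0364% to 0.121% in NI. Per kb of its longest coding transcript it ranked 124 of 15729 genes in NI and 6 of 15729 at 2 weeks after FT.

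The log2 change of *Apoe* from NI was smallest at 72 h after HS, 2.14 (SE 0.78, adjusted p = 0.0455), and largest at 2 weeks after FT, 4.48 (SE 0.78, adjusted p = 0.000515). Between them lay 3.10 for FT at 72 h, 3.76 for HS at 1 week, 3.74 for HS at 2 weeks and 4.21 for FT at 1 week. Without FT 1 week replicate 1 the last was 4.09, and it was 3.80 and 4.76 without replicates 2 and 3. The call for HS at 72 h is fragile, as 9 of 32 alternatives ended it. Quantile normalization gave 1.55 (adjusted p = 0.184) and scaling to 1 total 1.63 (adjusted p = 0.0909). Without NI replicate 1, NI replicate 3, HS 72 h replicate 1 or HS 72 h replicate 3 it was 2.13, 1.71, 2.11 and 1.53, with adjusted p-values of 0.0883, 0.179, 0.108 and 0.189, and without HS 2 weeks replicate 3, FT 72 h replicate 3 or FT 2 weeks replicate 2 the adjusted p was 0.0544, 0.0509 and 0.0521. For HS at 1 week the call was lost in 3 of 32, without HS 1 week replicate 1 (2.61, adjusted p = 0.356), NI replicate 1 (3.76, adjusted p = 0.0521) or NI replicate 3 (3.34, adjusted p = 0.089). The other 4 groups kept it in all 32. Across all injured samples, the mean log2 value was 12.57 in the 17 injured and 9.01 in the 3 NI samples (exact permutation test, two-sided, p = 0.00351, adjusted over the 6 genes 0.00421).

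Astrocytes also make *Apoe*, and the part of RNA from astrocytes in these levels was not tested. The summed value of 9 astrocyte markers was 420.4 to 758 in NI, 167 to 324 at 2 weeks after HS and 188 to 254 at 2 weeks after FT, and no marker was at 0 throughout a group. At 72 h it was 308 to 599.8 after HS and 497 to 714 after FT, and at 1 week 293 to 314 after HS and 309 to 458 after FT. The ranges at 72 h after either injury and at 1 week after FT overlap NI. Of the 9 markers, 3 fell and 1 rose at 72 h after HS, and 2 fell and 2 rose at 72 h after FT. At 1 week 4 fell and 0 rose after HS, and 5 fell and 1 rose after FT. At 2 weeks 6 fell and 0 rose after either injury. Of all 16810 genes, 724, 81 and 134 were DE and lower at 72 h, 1 week and 2 weeks after HS. After FT these were 688, 201 and 228. Within groups, the r between the deviations of *Apoe* and of this sum was −0.38 over the 20 samples. The log2 change of *Slc1a2*, the main glutamate transporter of astrocytes, was −3.41 at 2 weeks after FT, and that of *Atp1b2* was −3.91, while *Gfap*, an intermediate filament of reactive astrocytes, rose by 2.86 at 72 h after FT.

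*Apoc1*, the neighbour of *Apoe*, had 2.26, 2.45 and 2.21 in NI, from 38, 19 and 23 reads. After HS the values were 32.1, 47.4 and 37.5 (72 h), 61.3 and 72.4 (1 week) and 108, 91.3 and 112 (2 weeks). After FT they were 38.3, 60.2 and 47.1 (72 h), 165, 105 and 179 (1 week) and 136, 153 and 120.4 (2 weeks). No injured sample came near the NI range. The log2 change ran from 3.80 (SE 0.21, adjusted p = 4.49e-11) at 72 h after HS to 5.71 (SE 0.21, adjusted p = 7.95e-14) at 1 week after FT, and all 32 alternatives kept the call in each of the 6 comparisons.

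*Apoc2*, whose product switches lipoprotein lipase on, had 2.5, 4.12 and 5.37 in NI. The HS samples had 68.9, 128 and 90.2 (72 h), 40.6 and 46.0 (1 week) and 56.0, 46.6 and 70.1 (2 weeks). The FT samples had 192, 136 and 115 (72 h), 106, 66.2 and 103 (1 week) and 74.0, 71.5 and 60.6 (2 weeks). All injured samples lay above NI, and unlike in *Apoc1* the earliest group had the highest mean after either injury. In the order of time, the log2 change from NI was 4.43, 3.33 and 3.72 after HS and 5.06, 4.38 and 3.99 after FT (adjusted p of 2.16e-07 at most).

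*Apoc4* was the scarcest of the genes. It had 4, 2 and 6 reads in NI, a normalised count of 0.238, 0.257 and 0.576. In HS samples it had 3.63, 9.14 and 4.72 (72 h), 8.17 and 9.86 (1 week) and 26.2, 17.5 and 26.9 (2 weeks). In FT samples it had 5.62, 8.76 and 8.73 (72 h), 26.2, 16.6 and 24.1 (1 week) and 38.6, 35.3 and 30.0 (2 weeks). Every injured sample lay above every NI sample. With so few reads in NI the fitted change depends on the value added: at 2 weeks after FT it was 5.37 (SE 0.29, adjusted p = 4.5e-11), and between 4.72 and 6.63 over the alternatives. From the summed reads the ratio to NI was 14.6 (95% exact counting interval 8.23 to 28.8) at 72 h after HS and 100.02 (57.0 to 194) at 2 weeks after FT. These intervals cover counting error only.

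*Lpl*, the lipase that releases fatty acids from particles, had 64.1, 72.5 and 67.0 in NI. HS brought it to 441, 573 and 491 (72 h), 671 and 654 (1 week) and 1362, 1060.3 and 929 (2 weeks). FT brought it to 531, 556 and 524 (72 h), 449, 819.7 and 889 (1 week) and 1536, 1032 and 1038 (2 weeks). The injured samples were all at least 441. The highest sample of a group had at most 1.49 times the lowest, except at 1 week after FT. There it had 1.98 times the lowest, and replicate 1 held the low value. The log2 change rose from 2.87 (SE 0.23, adjusted p = 7.21e-09) at 72 h after HS and 2.98 after FT to 4.01 and 4.11 (SE 0.23, adjusted p = 5.15e-11) at 2 weeks, and it was 3.28 and 3.34 at 1 week. Without FT 1 week replicate 1 the last of these was 3.65.

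*Lrp1*, the endocytic receptor, had 465, 421 and 371 in NI. Its values after HS were 609, 504 and 600.4 (72 h), 537 and 449.8 (1 week) and 613, 372 and 414 (2 weeks). Its values after FT were 761, 452 and 717 (72 h), 464, 548 and 483 (1 week) and 668, 445 and 428 (2 weeks). The receptor thus overlapped NI in every injured group but HS 72 h. Its log2 change was between 0.12 (SE 0.23, adjusted p = 0.862) at 2 weeks after HS and 0.59 (SE 0.23, adjusted p = 0.0648) at 72 h after FT, and in no alternative was it DE. Its direction depended on the scaling. Quantile normalization put it below 0 in 5 of the 6 groups, from −0.02 at 1 week after HS to −0.21 at 2 weeks after HS, and left 0.07 at 72 h after FT. With columns scaled to 1 total it was below 0 in 4 of the 6, −0.06 at 72 h after HS for instance, but there the median of all genes was −0.52, and relative to that median *Lrp1* stood at 0.46, against 0.55 in the fit as reported.

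**Figure D2:**
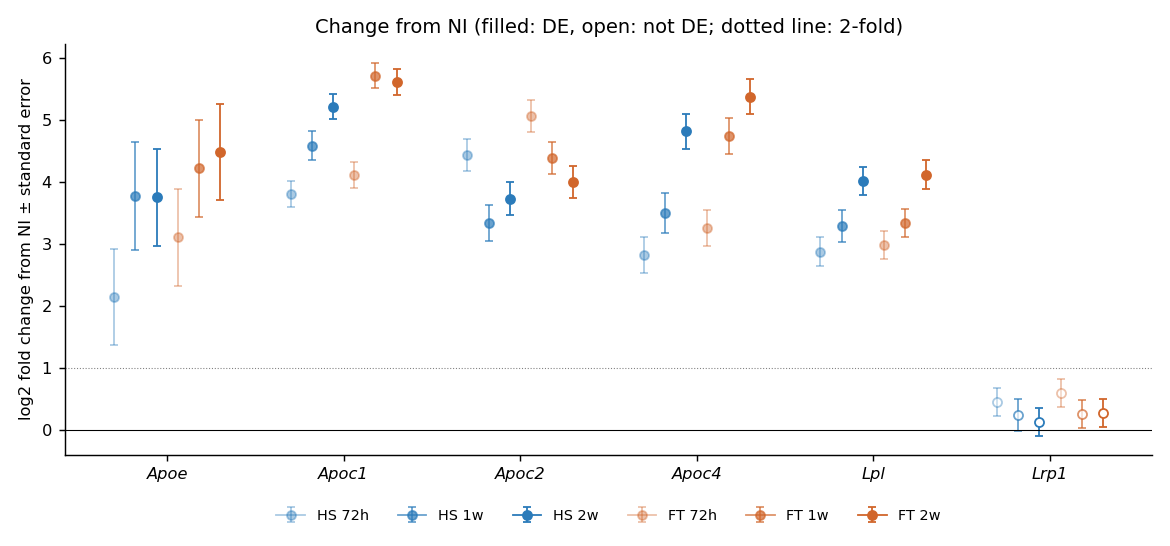
The log2 fold change from NI with its standard error for the 6 genes in the 6 injured groups (blue HS, orange FT, darker with time), filled where DE and open where not. The 5 genes from *Apoe* to *Lpl* lie between 2.14 and 5.71, and *Lrp1* between 0.12 and 0.59.

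The order of the groups by mean level differed between the genes. *Apoe*, *Apoc4* and *Lpl* were highest at 2 weeks after FT and *Apoc1* at 1 week after FT, while *Apoc2* and *Lrp1* were highest at 72 h after FT. NI was the lowest group for all 6. For the first 5 genes the only neighbours in this order that differed as DE were NI and the lowest injured group, and for *Lrp1* no neighbours did. Per kb of coding transcript, the mean level at 2 weeks after FT was 9903 for *Apoe*, 292 for *Lpl*, 257 for *Apoc1*, 94.5 for *Apoc2*, 64.3 for *Apoc4* and 34.5 for *Lrp1*. In NI it was 410 for *Apoe*, 28.2 for *Lrp1*, 16.5 for *Lpl*, 5.50 for *Apoc2*, 4.33 for *Apoc1* and 0.664 for *Apoc4*.

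The second question was how levels moved with time after injury. From 72 h to 2 weeks *Apoc1*, *Apoc4* and *Lpl* rose after both injuries and *Apoc2* fell after FT. The log2 change of *Apoc2* after HS was also below 0 but not DE (−0.70, SE 0.26, adjusted p = 0.0933). After HS the log2 change was 1.41 for *Apoc1* (SE 0.21, adjusted p = 8.79e-05), 2.00 for *Apoc4* (SE 0.29, adjusted p = 7.36e-05) and 1.14 for *Lpl* (SE 0.23, adjusted p = 0.00237), 3 of 6 genes against 4.74% of all genes. After FT it was 1.5 for *Apoc1*, 2.12 for *Apoc4*, 1.14 for *Lpl* and −1.07 for *Apoc2* (SE 0.26, adjusted p = 0.0165), 4 of 6 genes against 3.81% of all genes. *Apoe* changed by 1.60 after HS and 1.38 after FT over the same time with a standard error of 0.78, and neither passed (adjusted p = 0.200 and 0.348).

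By 1 week, *Apoc2* had fallen after HS by 1.09 on the log2 scale (SE 0.29, adjusted p = 0.0213), 1 of 6 genes against 6.03% of all genes. *Apoc1* had risen there by 0.78 (SE 0.23, adjusted p = 0.0361), under the 2-fold limit. With columns scaled to 1 total that rise was DE (1.08, adjusted p = 0.00525), and the median of all genes was 0.33. After FT *Apoc1* had risen by 1.61 (adjusted p = 2.03e-05) and *Apoc4* by 1.48 (adjusted p = 0.00264), 2 of 6 against 3.44%. The change of *Apoc2* after FT was −0.68 (SE 0.26, adjusted p = 0.143), which was not DE. From 1 to 2 weeks none of the 6 was DE in limma, against 0.0119% of all genes after HS and 0.0714% after FT, with an unadjusted p under 0.05 for 3 of the 6 after HS and 2 after FT, and for 789 and 773 of all 16810 genes. The falls of *Apoc2* were the least certain. The change at 1 week after HS passed in 27 of 32 alternatives and failed after quantile normalization (−0.87), with 1 total (−0.80) and without HS 72 h replicate 2 (−0.86, adjusted p = 0.101), HS 1 week replicate 1 (−1.003, adjusted p = 0.150) or HS 1 week replicate 2 (−1.18, adjusted p = 0.101). The change at 2 weeks after FT passed in 28 of 32 and failed after quantile normalization (−0.95), with 1 total (−0.995) and without FT 72 h replicate 1 (−0.86, adjusted p = 0.0965) or FT 2 weeks replicate 3 (−0.98, adjusted p = 0.0831). The rises of *Lpl* to 2 weeks fell just under 2-fold without HS 2 weeks replicate 1 (0.99) and without FT 2 weeks replicate 1 (0.95).

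A factor applied to a whole sample nearly cancels in the ratio of a pair of genes within it, taken here on log2(value + 0.5). Quantile normalization is not such a factor, and the ratios were not recomputed under it. The log2 ratio of *Apoc1* to *Apoc2* was −0.63 ± 0.50 (SD, n = 3) in NI. After HS it was −1.26 ± 0.16 (72 h, SD, n = 3), 0.62 ± 0.04 (1 week, SD, n = 2) and 0.86 ± 0.16 (2 weeks, SD, n = 3). After FT it was −1.58 ± 0.63, 0.70 ± 0.08 and 0.98 ± 0.11 (SD, n = 3 each). Thus *Apoc2* had the higher count in all samples at 72 h, and *Apoc1* in all samples at 1 and 2 weeks. With both injuries together the ratio was 2.34 higher on the log2 scale at 2 weeks than at 72 h (6 samples each, exact permutation test, two-sided, p = 0.00216, the smallest this design allows). Of the 10 ratios between the 5 genes that rose, chosen after their values were seen, 6 differed between 72 h and 2 weeks at an adjusted p of 0.00722 or less, among them *Apoc2* to *Apoc4* (−2.94), *Apoc2* to *Lpl* (−2.02) and *Apoe* to *Apoc2* (2.38). The ratio of *Apoe* to *Apoc1* was 6.19 at 72 h and 6.22 at 2 weeks (exact permutation p = 0.957).

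**Figure D3:**
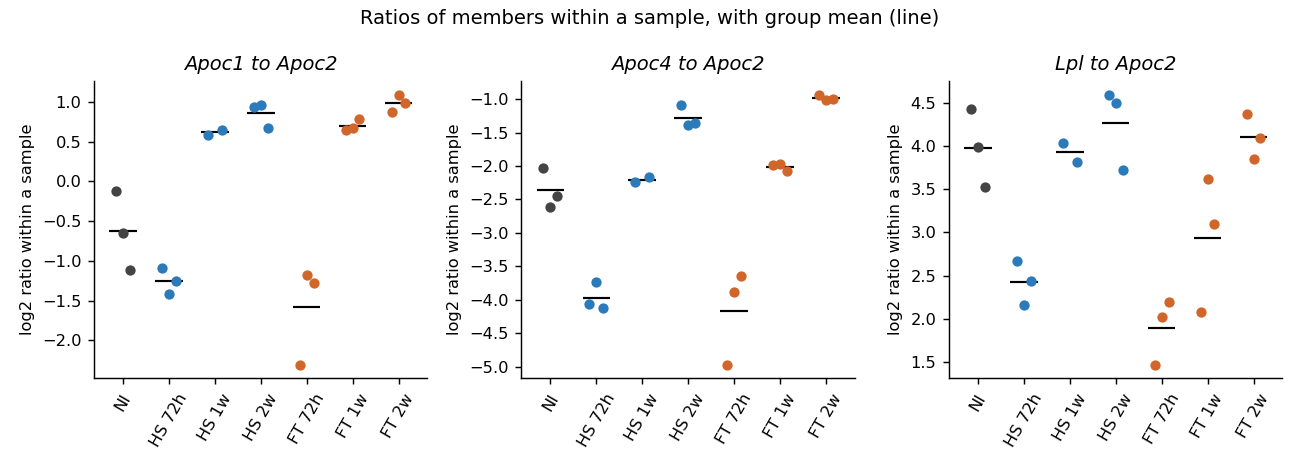
The log2 ratio of *Apoc1*, *Apoc4* and *Lpl* to *Apoc2* within each sample, by group, with the group mean as a line. For *Apoc1* and *Apoc4* the samples at 72 h lie below all samples at 1 and 2 weeks, with *Apoc1* to *Apoc2* at most −1.09 at 72 h and at least 0.59 later.

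Markers of other cells that may carry eGFP also changed with time, and their part in these levels was not tested. The summed value of 10 monocyte and macrophage markers was 46.1 to 59.0 in NI, and no marker was at 0 throughout a group. At 72 h it was 90.3 to 169 after HS and 116 to 329 after FT. At 2 weeks it was 52.4 to 78.0 after HS and 46.3 to 68.3 after FT. At 1 week it was 93.9 to 117 after HS and 63.5 to 71.0 after FT. At 72 h, 4 of the 10 rose and 1 fell after HS, and 6 rose and 0 fell after FT, beside the 9.08% and 8.14% of all genes that were higher. Among them were *S100a4* (2.54 after HS) and *Chi3l3* (3.35 after FT), while *Emr4* fell by 1.39 at 2 weeks after FT. The summed value of 8 markers of border-associated macrophages was 219 to 235 in NI. After HS it was 236 to 288 (72 h), 161 to 163 (1 week) and 107 to 131 (2 weeks). After FT it was 252 to 436, 246 to 354 and 134 to 159. At 2 weeks 6 of the 8 fell after either injury, *Lyve1* by 3.04 after HS, while 1 rose after HS and 2 after FT. Of all 16810 genes, 134 and 228 were DE and lower at 2 weeks after HS and FT, and 409 and 593 were DE and higher. *Folr2*, a folate receptor, and *Ms4a7* rose, by 3.90 and 2.39 at 1 week after FT. Summed over their lists, 7 oligodendrocyte markers had 1139 to 2324 in NI and 382 to 2436 in injured samples, 6 neuron markers 37.4 to 71.1 and 10.7 to 35.7, and 6 endothelial markers 49.1 to 75.3 and 18.9 to 71.7. Of the 10 microglia markers, 1 rose and 1 fell at 72 h after either injury. At 1 week 0 were DE after HS and 1 rose after FT, and at 2 weeks 0 were DE after HS and 1 fell after FT. Of all genes, 2.18% (HS 1 week) to 13.4% (HS 72 h) were DE in either direction. *Tmem119* fell by 1.22 at 72 h after HS, *P2ry12* by 1.11 at 2 weeks after FT, and *Fcrls* rose by 1.61 at 72 h after FT.

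The third question was whether the more severe FT differed from HS. By limma, 0 of the 6 genes were DE between FT and HS at any of the 3 times, with 1, 3 and 0 of them at an unadjusted p under 0.05. Of all genes 0.0% were DE at each time, with 505, 724 and 438 genes at an unadjusted p under 0.05. The quasi-likelihood test of edgeR called 0 of all genes at each time, its likelihood ratio test 0, 8 and 1, and DESeq2 0, 7 and 1. The largest differences were at 1 week, where the values of *Apoc1*, *Apoc2* and *Apoc4* after FT all lay above those of the 2 samples after HS. The groups did not overlap in 15.03% of all genes. The log2 difference was 1.13 for *Apoc1* (SE 0.23, unadjusted p = 8.04e-05, adjusted p = 0.286), 1.05 for *Apoc2* (SE 0.29, unadjusted p = 0.00182, adjusted p = 0.983) and 1.24 for *Apoc4* (SE 0.32, unadjusted p = 0.000926, adjusted p = 0.983). *Apoc1* passed in the edgeR likelihood ratio test (1.17, adjusted p = 0.0266) and in DESeq2 (1.16, adjusted p = 0.0235) on the recovered reads, and in none of the other 30 alternatives, over which the adjusted p reached 1.00. *Lpl* differed by 0.11, 0.06 and 0.10 at the 3 times (SE 0.23, 0.25 and 0.23), and *Apoe* by 0.96, 0.45 and 0.73 with standard errors of 0.78, 0.87 and 0.78. The difference of *Apoe* at 1 week was −0.70 without HS 1 week replicate 2 and 1.60 without HS 1 week replicate 1. Without FT 1 week replicate 1 the differences at 1 week were 1.04 for *Apoc1*, 0.93 for *Apoc2* and 1.11 for *Apoc4*.

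The spread of *Apoe* between samples of a group was unlike that of its neighbours. Its within-group SD was 1.18 on the log2 scale, larger than in all but 44 of the 16810 genes, against a median of 0.34. The SD was 0.26 for *Apoc1*, 0.36 for *Apoc2*, 0.37 for *Apoc4* and 0.28 for both *Lpl* and *Lrp1*. The highest *Apoe* sample of a group had 3.31 times (NI) to 5.92 times (HS 2 weeks) the lowest, from 2955 reads or more in every sample, so that counting error is small beside this spread. The r between the deviations of *Apoe* and of log2 depth was 0.01, and other effects of library quality on this spread were not tested.

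Deviations from the group mean were compared between the genes in all 20 samples, with permutation of the samples within groups. *Apoe* deviated together with *Lrp1* (Pearson r = 0.83, Spearman rho = 0.82, permutation p = 0.00055 and 0.00112, adjusted over 21 relations 0.00577 and 0.0118), and r was 0.80 without the 2 samples farthest from the median. This was not particular to the pair. Among 14051 genes, 383 had an r over 0.8 with the *Apoe* deviations and 196 an r under −0.8. With *Lrp1*, 287 genes lay beyond either limit. In all 7 groups the sample with the highest *Apoe* had more *Lrp1* than the sample with the lowest. By contrast, r was −0.40 between *Apoe* and *Apoc1*, −0.14 with *Apoc2* and −0.30 with *Apoc4*, none of which passed (adjusted permutation p of 0.288, 0.744 and 0.524). *Apoc1* and *Apoc4* deviated together (r = 0.78, rho = 0.74, adjusted permutation p = 0.00971 and 0.0222, and r = 0.78 without the 2 farthest samples).

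Ribosomal protein genes also moved with the *Apoe* deviations. The median deviation of 78 ribosomal protein genes ran opposite to *Apoe* (r = −0.76, rho = −0.77, permutation p = 0.00045 and 0.00024, adjusted 0.00577 and 0.00504, and r = −0.69 without the 2 farthest samples) and to *Lrp1* (r = −0.72, rho = −0.66, adjusted permutation p = 0.00971 and 0.022). With *Apoc1* its r had the other sign (0.75, rho = 0.69, adjusted permutation p = 0.0748 and 0.068). It was 0.52 with *Apoc4*, 0.27 with *Apoc2* and −0.31 with *Lpl* (adjusted permutation p = 0.196, 0.564 and 0.64), and none of these passed. In all 7 groups the sample with the lowest *Apoe* had a higher summed value of the ribosomal protein genes than the sample with the highest, 89722 against 61818 at 72 h after FT. The sums also differed between groups, with 32289 and 26774 in the corresponding NI samples. Across 13203 genes, which are not independent replicates, the r of a gene's deviations with those of *Apoe* also rose with the GC content of the transcript (median −0.16 for genes of under 44.0% GC and 0.24 for genes of over 55.5% GC, the outer of 5 equal bins). *Apoe* and *Lrp1* have transcripts of 59.5% and 57.9% GC. Those of *Apoc4*, *Apoc2*, *Apoc1* and *Lpl*, whose deviations were not shown to go with those of *Apoe*, have 58.0%, 56.5%, 54.9% and 43.5%. What these values contribute to the spread of *Apoe* was not tested.

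**Figure D4:**
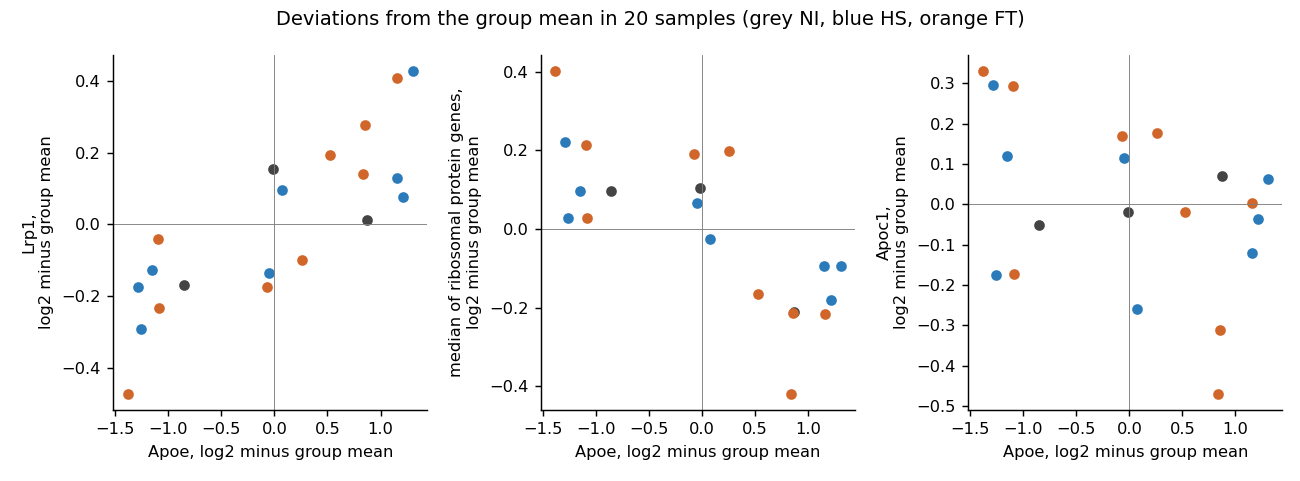
Deviation of each sample from its group mean on the log2 scale, *Apoe* on the x axis against *Lrp1*, the median of 78 ribosomal protein genes, and *Apoc1* (grey NI, blue HS, orange FT, 20 samples). The points rise for *Lrp1* (r = 0.83), fall for the ribosomal protein genes (r = −0.76) and scatter for *Apoc1* (r = −0.40).

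The genes whose pattern over the 20 samples was most like that of each gene were listed by Pearson r among 14051 genes with a mean of at least 1. For *Apoc1*, *Apoc2*, *Apoc4* and *Lpl* the 3 NI samples lay below all 17 injured ones, a difference that enters r. *Lpl* was closest to *Clec7a* (0.99), a receptor for fungal glucans, *Ch25h* (0.99), which makes 25-hydroxycholesterol, and *Cst7* (0.98), a cystatin. *Apoc1* was closest to *Cst7* (0.97), the growth factor *Igf1* (0.97) and *Apoc4* (0.97), and *Apoc4* to *Apoc1* (0.97), *Fam20c* (0.97) and *Cst7* (0.96). *Apoc2* was closest to *Spp1* (0.94), which encodes osteopontin, *Mif* (0.94) and *Cd52* (0.94). *Apoe* was closest to *Crocc* (0.91), *Sh3pxd2b* (0.90) and *Actr3b* (0.89), and *Lrp1* to the cytoskeletal gene *Tln1* (0.93), *Aldh2* (0.92) and *Tab1* (0.91).

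Genes on both sides of the cluster were read for comparison. Of 10 flanking genes (*Bcl3*, *Cblc*, *Bcam*, *Pvrl2*, *Tomm40*, *Clptm1*, *Relb*, *Clasrp*, *Zfp296* and *Gemin7*), none was DE in 5 of the 6 injured groups. *Bcl3*, a regulator of NF-kappaB, rose at 2 weeks after FT (1.09, SE 0.32, adjusted p = 0.0379). Of all genes, 2.18% (HS 1 week) to 13.4% (HS 72 h) were DE in either direction, so that so few calls among 10 genes are near the background. *Tomm40*, the gene next to *Apoe*, had log2 changes between −0.35 and 0.05. The median change over the 10 was between −0.17 and 0.18.

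Among 49 other genes of lipoprotein handling in the table, of 53 listed, 6 (72 h), 2 (1 week) and 4 (2 weeks) were DE after HS, and 7, 5 and 5 after FT. Of all genes, HS had 13.4%, 2.18% and 3.23% DE in either direction, and FT had 12.2%, 4.05% and 4.88%, so that the counts at 72 h are near the background. *Abcg1*, which passes cholesterol to particles, rose in all 6 groups, by 1.64 to 2.29 on the log2 scale, and *Abca1*, which loads lipid onto apolipoprotein E, rose in 5 of the 6, by up to 1.82 (SE 0.19, adjusted p = 1.08e-06) at 1 week after FT. At 72 h after HS the change of *Abca1* was 0.90 (adjusted p = 0.00105), under the 2-fold limit. The other 3 genes of that list, *Abca7*, *Pltp* and *Lcat*, were not DE in any group, although *Pltp*, a phospholipid transfer protein, had a change just under 2-fold at 1 week after FT (0.99, adjusted p = 0.0192). The median change of the 5 was between −0.04 and 0.99. Of the LXR and RXR factors that act on these genes (*Nr1h2*, *Nr1h3*, *Rxra* and *Rxrb*), 0 of 4 were DE in limma in any group, and *Nr1h3* was at 3.62 ± 1.26 (SD, n = 3) in NI.

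Of 12 other members of the LDL receptor family, 1 was DE in any group, *Ldlrad3*, which rose at 72 h and 1 week after FT (1.12 and 1.16). *Lrpap1*, the chaperone that keeps *Lrp1* and its relatives free of ligand in the secretory pathway, rose in 4 of 6 groups, from 242 in NI to 686 at 72 h after FT (1.51, SE 0.22, adjusted p = 4.14e-05). *Dab2*, an endocytic adaptor, rose at 72 h after HS (2.35) and FT (2.36), and its changes at 2 weeks were 0.14 and 0.30. The remaining 5 of the 7 chaperones and regulators were not DE.

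**Figure D5:**
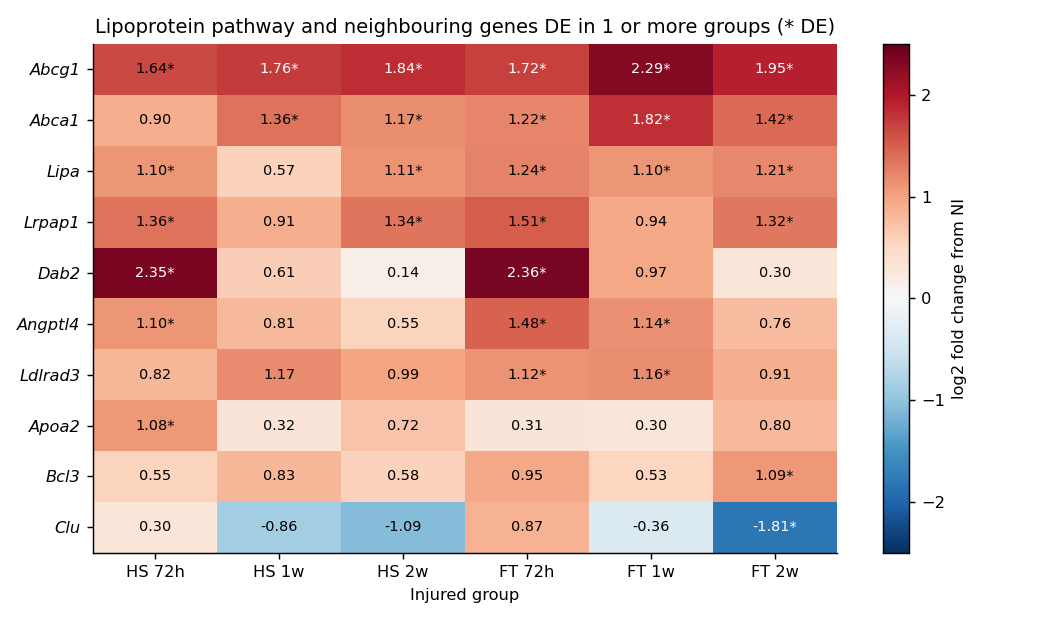
The log2 fold change from NI, by injured group, of the 10 genes of the lipoprotein lists and the flanking genes that were DE in 1 or more groups, with an asterisk where DE. *Abcg1* (1.64 to 2.29) is the row that is DE in all 6 groups, and *Clu* is the row that is DE downward.

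Of 9 genes for the maturation, anchoring and inhibition of *Lpl*, 1 was DE in any group. This was *Angptl4*, an inhibitor of the lipase, at 72 h after HS (1.10) and at 72 h and 1 week after FT (1.48 and 1.14). *Gpihbp1*, the endothelial anchor of the lipase, had a mean of 0.258 in NI and at most 0.551 after injury. Of 6 other lipases, *Lipa*, the acid lipase of lysosomes, rose in 5 of the 6 groups, by 1.10 to 1.24, and had a change of 0.57 (adjusted p = 0.316) at 1 week after HS. Among the 6 other apolipoprotein genes in the table, of 10 listed, *Apoa2* rose at 72 h after HS (1.08, from 0.434 to 1.45), and *Clu*, which encodes clusterin, fell at 2 weeks after FT (−1.81, SE 0.49, adjusted p = 0.0225).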

How the data were processed

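RNA of sorted microglia was sequenced in 20 samples of 7 groups. The signal values that the authors deposited for 16810 genes are normalised counts: per the study's methods and the submitters' processing notes, reads were mapped with TopHat2 (2.0.9) to mm10, counted per gene with HTSeq (0.5.4p3) and normalised by library size with edgeR (3.3.6). Strand use is not given in the sources used here. Every one of the 336200 values was a whole multiple of the worth of 1 read in its sample (tolerance 0.001 of a read), so that whole reads were recovered (100% of values). No 2 samples of a group agreed within sampling noise (smallest chi-square per gene 10.7). The study's methods state 3 biological replicates per time point and for NI, while HS at 1 week has 2 samples here. How the mice were divided among the samples is not given, and p-values measure the spread between these samples.

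The main test was limma 3.58.1 with an intensity trend on log2(value + 0.5), 1 mean per group, all 20 samples, and Benjamini-Hochberg adjustment over all genes, with DE at adjusted p under 0.05 and 2-fold. Contrasts set injury against NI, FT against HS, and 1 time against another. Changes in the text are on this log2(value + 0.5) scale, which understates those of low genes. The alternatives used another added value (0.1 or 1), a filter (at least 1 in at least 2 samples, 16122 genes), the 2 compared groups by themselves, other scalings (median of ratios, quantile, or every column brought to 1 total), calls without the fold limit, and a block for replicate numbers. Recovered reads went through edgeR 4.0.16 (quasi-likelihood and likelihood ratio) and DESeq2 1.42.0, and every sample was left out in turn. The fits were tested on simulated data. Symbols were matched to GENCODE vM21 (15729 genes), and levels per kb use the longest coding transcript. Single values were compared by exact permutation (scipy 1.17.1), and deviations by 100000 permutations within groups.

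Named genes were the 6 genes, of each list at most the 2 largest rises and 2 largest falls that were DE, the flanking genes, and the 3 genes most like each. Other genes named within a list were named after their values were seen. The members and lists were chosen with earlier results of these data known, and the lists come from general knowledge.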

Additional observations from a re-analysis of the deposited data

How the results depend on the processing

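The number of the 6 genes called against NI was 5 in each injured group, and 4 or 5 when a single sample was left out. At 72 h after HS it was also 4 after quantile normalization and with columns scaled to 1 total, where *Apoe* was lost. The count between FT and HS at 1 week was 0, and 1 in the edgeR likelihood ratio test and 1 in DESeq2. The count between 72 h and 1 week after HS was 1, and 0 after quantile normalization, 2 without a fold limit and 0 to 1 with a sample left out (0 without HS 72 h replicate 2, HS 1 week replicate 1 or HS 1 week replicate 2). With columns scaled to 1 total it stayed at 1, but *Apoc2* was lost (−0.80) and the rise of *Apoc1* was called (1.08). Differences of the 6 genes that changed sign were all uncalled. *Lrp1* did so against NI after quantile normalization (−0.14, −0.017 and −0.21 at 72 h, 1 and 2 weeks after HS, −0.10 and −0.14 at 1 and 2 weeks after FT) and with columns scaled to 1 total (−0.062 and −0.20 at 72 h and 2 weeks after HS, −0.094 and −0.13 at 1 and 2 weeks after FT). Under these 2 scalings, in this order, *Lrp1* also turned to −0.083 and −0.12 (FT minus HS, 1 week), 0.13 and 0.087 (HS, 1 week minus 72 h) and −0.044 and −0.035 (FT, 2 weeks minus 1 week), and *Lpl* to −0.083 and −0.079 (FT minus HS, 1 week). *Apoe* turned to 0.092 with the replicate block (HS, 2 weeks minus 1 week). With a sample left out, FT minus HS ranged from −0.70 to 1.60 for *Apoe*, −0.13 to 0.37 for *Lpl* and −0.11 to 0.14 for *Lrp1* at 1 week, and from −0.092 to 0.25 for *Lpl* and −0.061 to 0.36 for *Lrp1* at 2 weeks. From 1 to 2 weeks it ranged from −1.17 to 1.13 for *Apoe* and −0.32 to 0.036 for *Lrp1* after HS, and from −0.31 to 0.81 for *Apoe*, −0.34 to 0.040 for *Apoc1* and −0.19 to 0.13 for *Lrp1* after FT. *Lrp1* against NI at 2 weeks after HS ranged from −0.089 to 0.27. Scaling to 1 total moved the median of all genes to between −0.52 and −0.17. Of the 49 pathway genes, the 6 called at 72 h after HS became 11 without a fold limit, and the 4 at 2 weeks after HS became 2 after quantile normalization and 2 with columns scaled to 1 total. The 7 at 72 h after FT became 12 with columns scaled to 1 total and 12 without a fold limit. The 5 at 1 week after FT became 3 with only the 2 groups compared, 3 with columns scaled to 1 total, 9 without a fold limit, 8 in DESeq2 and 3 to 8 with a sample left out (8 without FT 1 week replicate 1, 3 without replicate 2 and 3 without replicate 3). The 5 at 2 weeks after FT became 3 after quantile normalization and 3 with columns scaled to 1 total. The cause was not tested. Over all genes, the 2250, 367, 543, 2057, 681 and 821 DE genes against NI reached 4585, 652, 839, 4060, 1182 and 1373 at most in the alternatives without omission, and fell to 166 at 1 week after HS without HS 1 week replicate 1; FT 1 week gave 1078 without its replicate 1.

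Samples with the same replicate number did not deviate together (median r 0.0017 over 57 pairs, 9 of 20 samples closest to their own number), so the numbers were not taken as pairs; with the replicate block the count of the 6 genes was 5 in each comparison with NI and 0 between FT and HS, as without it. Low reads limit *Apoc4* in NI.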
